A study of Mus musculus with 20 samples.

Results

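Alpha4 (α4), encoded by Igbp1, and the phosphatase genes it works with were followed in mouse adipose tissue after deletion of Igbp1 in adipocytes. The 9 genes were taken by name from the 25219 genes of the deposited table and cover 4 roles. Igbp1 and its intronless relative Igbp1b encode α4 proteins, Ppp2ca, Ppp2cb, Ppp4c and Ppp6c encode catalytic subunits, Tiprl encodes a regulator that binds the same subunits, and Lcmt1 and Ppme1 encode the enzymes that add and remove a methyl group at the end of the catalytic chain. All 9 were found in the table, and 8 were tested, because Igbp1b held 0 counts in each of the 20 libraries. Totals ran from 24023791 to 50385196 counts per library, and a count of 0 allows up to 3 counts, so Igbp1b was not detectable at this depth. That limit covers counting error only. RNA came from inguinal white adipose tissue (iWAT) and brown adipose tissue (BAT) of male mice. Each tissue had 5 libraries per genotype, Control and Ai-α4KO.

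Ai-α4KO mice carried floxed Igbp1 and an Adiponectin-CreERT2 transgene, a Cre recombinase that is made in adipocytes and acts once tamoxifen is given. Controls carried the floxed alleles without Cre, by the study's methods, while the labels call their genotype WT. Both genotypes received 5 tamoxifen injections of 100 mg/kg within 6 days from the age of 2 months, and tissue was taken 1 week after recombination. Since the Cre acts in adipocytes alone, the other cells of the tissue keep Igbp1, and a whole-tissue value mixes both. Whether 1 mouse gave both tissues is not stated, so the tests measure the spread between libraries.

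Protein phosphatase 2A (PP2A) and its relatives PP4 and PP6 remove phosphate from serine and threonine. Each works as an assembly in which a catalytic subunit is joined by scaffold or regulatory subunits that choose the substrate. Free catalytic subunits are unstable, and α4 binds and shelters them before they are assembled. In adipocytes PP2A opposes the serine and threonine kinases downstream of the insulin receptor. RNA measures the supply of message only and says nothing of the amount or activity of these proteins.

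The 4 catalytic genes are related but distinct in sequence. Their coding ends are shown because the last codon, in capitals with the stop codon, encodes the leucine that LCMT1 methylates and PPME1 demethylates in PP2A. The last 45 bases of each coding sequence (GENCODE M21 transcripts matched by RefSeq number, GRCm38) read:
Ppp2ca: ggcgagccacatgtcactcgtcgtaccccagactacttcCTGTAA
Ppp2cb: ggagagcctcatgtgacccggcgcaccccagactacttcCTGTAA
Ppp4c: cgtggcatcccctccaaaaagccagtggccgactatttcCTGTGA
Ppp6c: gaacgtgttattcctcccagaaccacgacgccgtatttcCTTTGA
All 4 ended in a leucine codon, CTG in Ppp2ca, Ppp2cb and Ppp4c and CTT in Ppp6c. Ppp2ca and Ppp2cb were identical at 81.7% of 930 aligned coding bases, against 61.7% to 64.7% for the other pairs. The longest run of identical bases in the mRNAs of Ppp2ca and Ppp2cb was 25 bases.

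The starts of the α4 coding sequences are shown because only one of these genes was detected. Capitals mark the 20 of the first 60 bases at which they differ:
Igbp1: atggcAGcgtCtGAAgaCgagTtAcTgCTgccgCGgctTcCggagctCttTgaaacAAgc
Igbp1b: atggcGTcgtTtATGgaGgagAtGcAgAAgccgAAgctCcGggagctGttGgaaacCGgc
Over the whole coding sequence the pair was identical at 73.4% of 1020 aligned bases. None of the 150-base windows of any of the 9 mRNAs occurred in a transcript of another annotated gene. Near matches and unannotated sequence were not searched, so this does not settle whether each read can be told apart. The deposited count of Ppp2cb was a fraction in 20 of 20 libraries, more than for any other of the 9 genes, and its values are therefore less certain.

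Igbp1 (Entrez 18518, chromosome X from 100494291 to 100516125, plus strand, mm10 as in the table) was the most changed of the 9 genes. Levels are given as CPM, the count relative to the library total, adjusted by edgeR's TMM factors over the 20 libraries. In iWAT the Control libraries held 57.5, 69.9, 76.6, 67.5 and 64.7 CPM. The Ai-α4KO libraries held 10.7, 10.1, 11.1, 11 and 11 CPM. The groups did not overlap, and the Ai-α4KO libraries lay close to one another. The mean fell from 67.3 ± 7.01 to 10.8 ± 0.395 CPM (SD, n = 5 each), which leaves 16% of the Control level (log2 fold change -2.65, standard error 0.094, adjusted p = 4.98e-08 by edgeR's quasi-likelihood test).

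In BAT the fall was of similar size. The Control libraries held 90.6, 105, 96.2, 92.6 and 85.3 CPM and the Ai-α4KO libraries 14.3, 14.2, 17.4, 25.2 and 13.7 CPM. There was no overlap, and Ai-α4KO BAT library 4 kept the most Igbp1 of the deleted libraries. The mean fell from 93.9 ± 7.3 to 17 ± 4.83 CPM (SD, n = 5 each), or to 18.1% of Control (log2 fold change -2.50, standard error 0.169, adjusted p = 2.2e-07). The difference between the tissues was 0.17 on the log2 scale (95% interval -0.22 to 0.57, adjusted p = 0.563 for the interaction). That interval includes 0 and also a fall up to 0.57 smaller in BAT. Without Ai-α4KO BAT library 4 the sign of this difference turned, to -0.01.

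The order of Igbp1 levels was Control BAT, Control iWAT, Ai-α4KO BAT and Ai-α4KO iWAT, with no overlap between neighbours. Control BAT was above Control iWAT by 0.48 (log2, adjusted p = 0.00523), and Ai-α4KO BAT was above Ai-α4KO iWAT by 0.65 (log2, adjusted p = 0.00092), both from 1 edgeR fit of the 20 libraries. The Control difference lost its call when the scaling changed, as described for the other genes below, and also, at adjusted p between 0.0101 and 0.0154, without Control iWAT library 1, 4 or 5 or Control BAT library 2 or 3. Among all genes tested, the log2 fold change of Igbp1 was the number 179 from the lowest of 14604 in iWAT and the number 190 of 14344 in BAT. Many genes therefore fell by more than the targeted gene did.

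**Figure D1:**
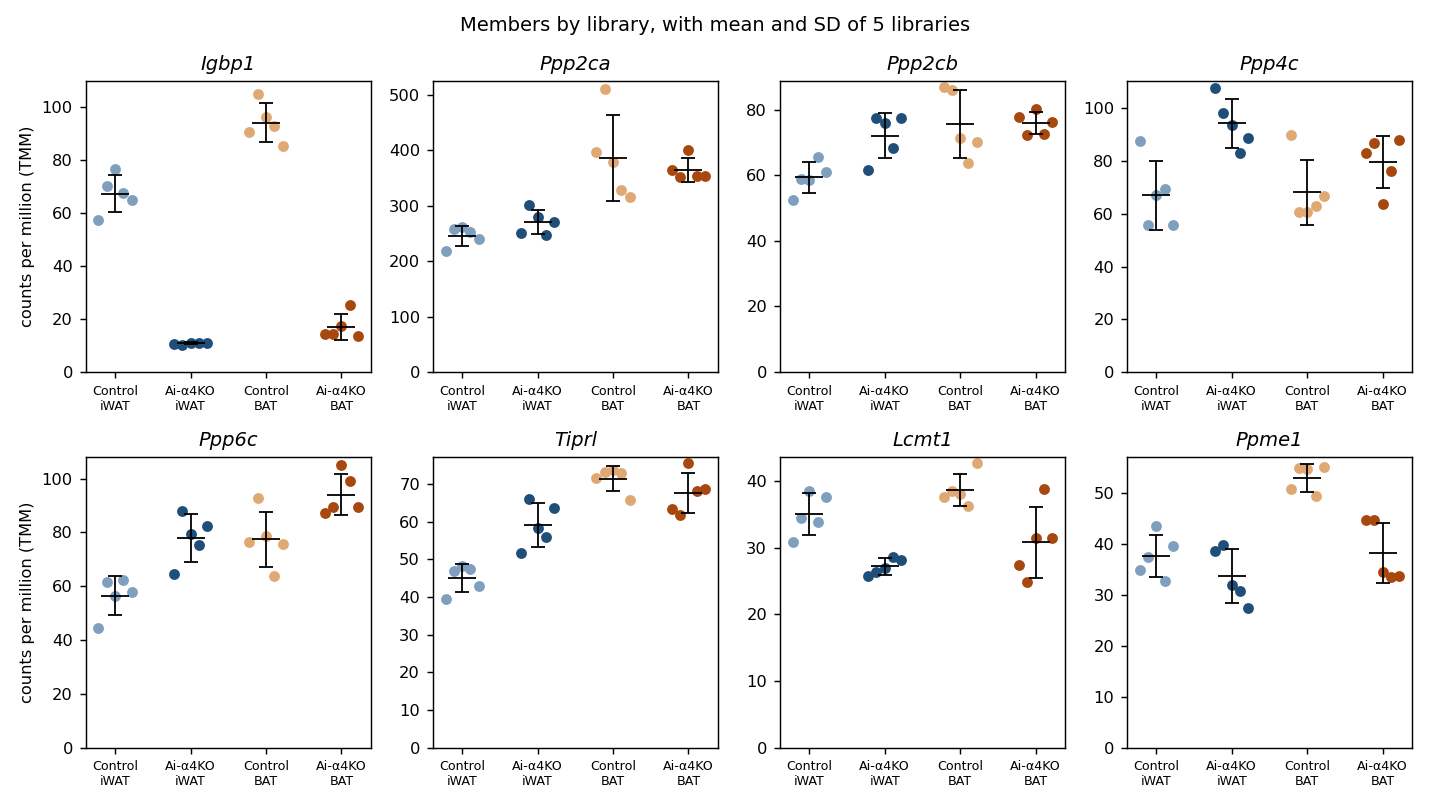
CPM (vertical axis, TMM-scaled, from 0) of the 8 tested genes in each of the 20 libraries, by group on the horizontal axis, with the mean and SD of 5 libraries. Igbp1 separates the genotypes in both tissues (10.1 to 11.1 against 57.5 to 76.6 CPM in iWAT), while for Ppp2ca and Ppp2cb the genotypes overlap.

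Brown adipocyte markers set the depots apart in Control mice, at 8299.8 to 12697 summed CPM in BAT against 134 to 994 in iWAT, and were at 1547 to 3589 in Ai-α4KO BAT and 17.3 to 38.9 in Ai-α4KO iWAT. Of the 6, 5 passed as lower in iWAT and 2 in BAT, where their log2 fold changes ran from -2.65 to 0.40. Markers of other cells moved with the genotype. Over all genes 21.5% passed as higher and 18.8% as lower in iWAT, and 25.0% and 24.8% in BAT. Of 10 adipocyte markers, 9 were lower in Ai-α4KO iWAT and 7 in Ai-α4KO BAT, and all 8 macrophage markers were higher in both tissues. The summed adipocyte markers ranged from 23588 to 31447 CPM in Control iWAT and from 11942 to 16897 in Ai-α4KO iWAT. In BAT they ranged from 23116 to 25673 in Control and from 13163 to 15847 in Ai-α4KO libraries. The summed macrophage markers lay between 1138 and 1926 CPM in Control iWAT and rose to between 7415 and 9980. Control BAT held 229 to 517 CPM of them and Ai-α4KO BAT held 4272 to 6986. Endothelial markers were lower, 3 of 5 in iWAT and all 5 in BAT. Their summed level lay between 374 and 483 CPM in Control iWAT and between 221 and 267 after deletion, and for BAT between 678 and 938 CPM before and between 272 and 353 after. Of 6 markers of stromal progenitors, 1 was higher in iWAT and 3 in BAT, with sums of 695 to 1031 CPM in Control BAT and 1399 to 1736 in Ai-α4KO BAT. Of 6 T cell markers, 4 were higher in BAT (2.81 to 4.93 against 14.5 to 57.7 summed CPM). Of the B cell markers, 2 of 4 tested were higher in BAT (1.29 to 4.51 against 6.24 to 16.1 summed CPM) and 1 of 5 tested was lower in iWAT. No marker of these lists was at 0 in a whole group. In such bulk RNA, fewer adipocytes and less Igbp1 RNA per adipocyte cannot be told apart. The part of these markers in the results below was not tested, except where stated.

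Igbp1 was therefore also set against the adipocyte markers within each library. In iWAT log2 CPM of Igbp1 minus the mean log2 CPM of the 10 markers was lower in Ai-α4KO (difference -0.82) without overlap (two-sided p = 0.0079 by an exact permutation test, which is the lowest this design can reach). In BAT it was lower too (difference -1.06, two-sided p = 0.0159 by an exact permutation test), and the groups overlapped. With Adipoq, the gene of adiponectin, in place of the list, the differences were -0.38 in iWAT (exact p = 0.151) and -0.35 in BAT (exact p = 0.27), so neither passed at 0.05, the threshold used for these permutation tests. Adipoq is also the gene whose regulatory DNA drives the Cre.

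The genes whose pattern was most like that of Igbp1 over the 20 libraries were looked for among 15232 genes, by the root mean square difference of centred log2 CPM. Aldh6a1, an enzyme of valine breakdown in mitochondria, was the closest at 0.212. It went from 941 to 165 CPM in iWAT, and in BAT from 1361 to 243 CPM. Kifc2, a kinesin, followed at 0.315 and Pcca, a subunit of the mitochondrial propionyl-CoA carboxylase, at 0.317. Echdc3 stood at 0.321 and Rad9b at 0.326. The log2 fold changes of these 5 genes lay between -2.90 and -2.03 over both tissues. The genes took the same places without normalization factors. A library's factor shifts Igbp1 and the compared gene alike and all but cancels in this difference, so that order could hardly change.

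The catalytic genes did not follow Igbp1 down. Of the 8 genes tested, 4 passed an adjusted p of 0.01 in iWAT, with Ppp6c and Tiprl higher and Igbp1 and Lcmt1 lower in Ai-α4KO. Over all genes in iWAT, 21.5% passed as higher and 18.8% as lower. In BAT 2 of the 8 passed, Igbp1 and Ppme1, both lower, against 24.8% of all genes lower and 25.0% higher. Only Igbp1 passed with a change of at least 2-fold, as 10.7% of all genes did in the lower direction in iWAT and 13.3% in BAT. The groups did not overlap for 4 of the 8 genes in iWAT and 2 of the 8 in BAT, against 39.1% and 47.6% of all genes. On the log2 scale the 8 fold changes had their median at 0.20 in iWAT, beside 0.01 over all genes, and at -0.11 in BAT, beside -0.03. Apart from Igbp1, iWAT values lay between -0.37 and 0.49, and BAT values between -0.51 and 0.25.

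These smaller differences depend on how libraries are scaled. With library size alone, without TMM factors, the median of all genes moved to 0.13 in iWAT and 0.23 in BAT, so each value below is relative to a centre that can shift by that much. The iWAT count of 4 also rested on single libraries. It was 1 without Control library 5 or Ai-α4KO library 3, and 2 without Control library 3 or Ai-α4KO library 2 or 5. The count in BAT was 2 with any library left out, but without Ai-α4KO BAT library 4 Ppme1 was lost and Lcmt1 gained.

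**Figure D2:**
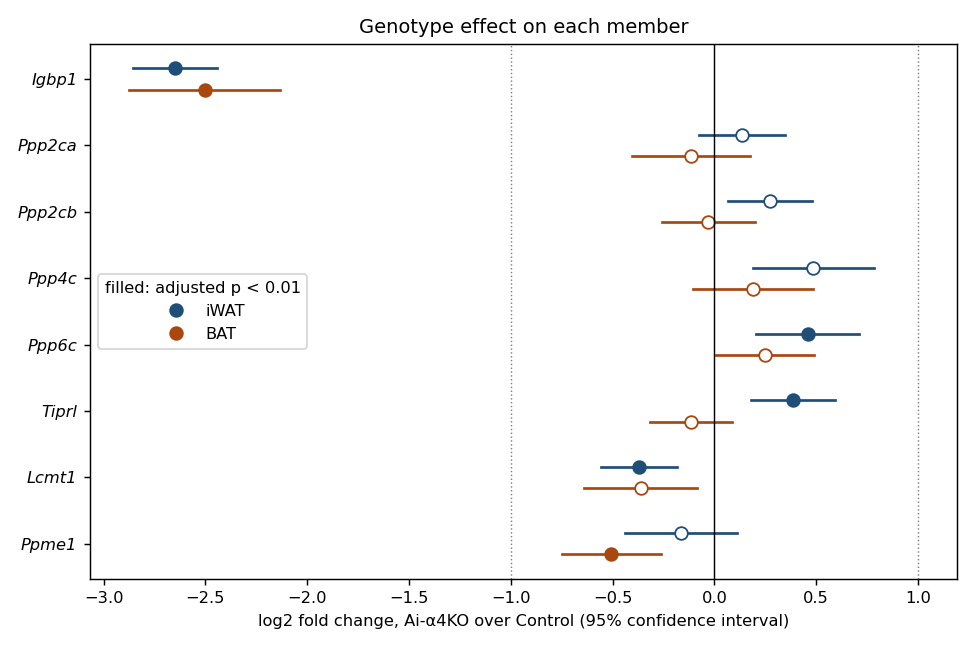
Log2 fold change of Ai-α4KO over Control (horizontal axis) for the 8 tested genes in iWAT and BAT, with 95% confidence intervals from edgeR. Filled points passed an adjusted p of 0.01, and dotted lines mark a 2-fold change. Igbp1 stands at -2.65 and -2.50, and the other 7 genes lie between -0.51 and 0.49.

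Ppp2ca encodes the α isoform of the PP2A catalytic subunit. In iWAT it held 218, 258, 261, 252 and 239 CPM in Control and 252, 302, 280.3, 248 and 271 in Ai-α4KO libraries. In BAT it held 397, 510.4, 379, 329 and 316 CPM in Control and 364, 352, 401, 353 and 353 in Ai-α4KO libraries. The genotypes overlapped in both tissues. The log2 fold change was 0.13 in iWAT (95% interval -0.08 to 0.34, adjusted p = 0.258) and -0.12 in BAT (95% interval -0.40 to 0.17, adjusted p = 0.467). Neither interval includes a change of 2-fold. The iWAT value was 0.03 without Control library 1 and 0.26 without normalization factors. The BAT value was -0.01 without Control BAT library 2, -0.05 without Ai-α4KO BAT library 4, and turned sign without normalization factors, to 0.15.

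Ppp2cb encodes the β isoform. Control iWAT libraries held 52.6, 59.0, 58.6, 65.6 and 61.1 CPM and Ai-α4KO iWAT libraries 61.5, 77.4, 75.8, 68.5 and 77.3. The value of Ai-α4KO library 1 lay inside the Control range and the other 4 lay above it. The log2 fold change of 0.27 did not pass (adjusted p = 0.0274). It passed without normalization factors, at 0.39 (adjusted p = 0.00352), under both limma settings, and without Ai-α4KO iWAT library 1, at 0.33 (adjusted p = 0.00809). It was smaller without Control iWAT library 1, at 0.17 (adjusted p = 0.128), and with upper-quartile factors, at 0.18 (adjusted p = 0.104). In BAT the levels were 75.7 ± 10.4 and 75.9 ± 3.36 CPM (SD, n = 5 each), with a log2 fold change of -0.03 (95% interval -0.26 to 0.20) whose sign turned under several alternatives.

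Ppp4c encodes the catalytic subunit of PP4. Control iWAT libraries held 87.5, 55.8, 66.9, 69.4 and 55.6 CPM and Ai-α4KO iWAT libraries 108, 98.2, 93.6, 83.2 and 88.8. Only Control library 1 reached into the Ai-α4KO range. The log2 fold change of 0.49 (95% interval 0.19 to 0.78) was the largest rise among the 8 genes but missed the threshold at an adjusted p of 0.0102. It passed without Control iWAT library 1, at 0.54 (adjusted p = 0.00223). It also passed with DESeq2 (adjusted p = 0.00314), in one fit of all 20 libraries (0.00516), under the replicate block (0.00766), without the filter (0.00993), without normalization factors (0.00465) and with limma on log2(FPKM + 1) (0.00294) or log2(FPKM + 0.1) (0.0028). In BAT the Control libraries held 89.8, 60.6, 60.6, 62.8 and 66.7 CPM and the Ai-α4KO libraries 83.2, 86.9, 63.8, 76.1 and 88.1. Library 1 was again the highest of its Control group, the ranges overlapped, and the log2 fold change of 0.19 did not pass (adjusted p = 0.242). It was 0.30 without Control BAT library 1 (adjusted p = 0.0475) and 0.46 without normalization factors (adjusted p = 0.0214).

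Ppp6c encodes the catalytic subunit of PP6 and was the only catalytic gene to pass. Control iWAT libraries held 44.5, 61.4, 56.4, 62.5 and 57.8 CPM and Ai-α4KO iWAT libraries 64.6, 88.1, 79.3, 75.5 and 82.2. The groups did not overlap, although Ai-α4KO library 1 stood just above the highest Control library. The log2 fold change was 0.46 (standard error 0.115, adjusted p = 0.00575). This call was lost, at adjusted p between 0.0108 and 0.0259, when Control library 1, 3 or 5 or Ai-α4KO library 2, 3, 4 or 5 was left out. It was also lost with upper-quartile factors (adjusted p = 0.0158). In BAT the levels were 77.5 ± 10.3 and 94.1 ± 7.68 CPM (SD, n = 5 each). Control BAT library 2, at 92.7 CPM, lay above 3 of the 5 Ai-α4KO BAT libraries. That log2 fold change of 0.25 did not pass (adjusted p = 0.0693), whereas without normalization factors it was 0.51 and did (adjusted p = 0.000823), as it did under both limma settings.

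B cell markers were high in Control iWAT libraries 1 and 4, at 435 and 168 summed CPM against at most 7.47 in the other Control iWAT libraries. With both left out, Igbp1 stood at -2.79, Ppp6c fell short of the threshold at 0.33 (adjusted p = 0.0332), and Ppp4c passed at 0.58 (adjusted p = 0.00355). Without passing, Ppp2ca moved to 0.02 (adjusted p = 0.916) and Ppme1 to -0.33 (adjusted p = 0.0781). The number of the 8 genes that passed was then 3. T cell markers in Control iWAT reached up to 238 summed CPM. Skeletal muscle markers also stood apart in single iWAT libraries, at 6870 summed CPM in Control library 4 and 5207 in Ai-α4KO library 1, against at most 178 in any other iWAT library. None of the 8 muscle markers passed in iWAT. The part of these markers in the results was not tested, beyond leaving out single libraries.

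The relative supply of the 4 catalytic messages was compared per length, as the share of each in their summed FPKM (the deposited value, a count divided by transcript width and library total). With the transcript widths of the table, Ppp2ca held the largest share in each library. In iWAT it made up 51.7% ± 2.5 of the sum in Control and 46.7% ± 0.779 after deletion (SD, n = 5 each, as for the other shares). The libraries ranged from 47.9% to 54.1% in Control and 45.6% to 47.6% in Ai-α4KO, so the groups did not overlap. For BAT the values were 58.2% ± 3.51 before and 53.9% ± 1.63 after deletion, with overlap. The shares do not depend on library scaling, and no test was made of them because they are built from the chosen genes.

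Ppp2cb stayed near the same share in all groups, with means from 11.8% to 13.1%. In iWAT the share of Ppp4c went from 20.5% ± 4.34 to 23.6% ± 2.59. In BAT it went from 15.1% ± 2.85 to 17.1% ± 2.46, and the genotypes overlapped in both tissues. Ppp6c went from 14.7% ± 1.59 to 16.6% ± 1.26 in iWAT, with overlap. In BAT its mean went from 14.6% ± 1.12 to 17.2% ± 1.15, with 1 Control library reaching into the Ai-α4KO range. Within PP2A, Ppp2ca made up between 78.1% and 82.8% of both isoforms in the means of the 4 groups.

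These shares and their order rest on the transcript widths. The table gives Ppp2ca 1930 bases, Ppp6c 1558 and Ppp2cb 1836, where the matched GENCODE transcripts have 7102, 4115 and 1469 bases. With the GENCODE widths, an alternative chosen after the data were seen, the iWAT share of Ppp2ca was 25.1% ± 2.24 for Control and 21.7% ± 0.716 for Ai-α4KO libraries, and the groups overlapped. The means in BAT were then 31% and 27.8%. The group means of Ppp2cb were then between 28% and 29.4%. Ppp4c held the largest share in each Ai-α4KO iWAT library and in 4 of 5 Control iWAT libraries, while Ppp2ca held it in 3 of 5 Control BAT libraries and 1 of 5 Ai-α4KO BAT libraries. Of both PP2A isoforms Ppp2ca then made up between 43.8% and 51.2% in the group means. Which width fits the counted reads was not tested, so the order of the 4 genes by share is not settled here.

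Igbp1 amounted to 18 ± 1.45 FPKM for every 100 FPKM of catalytic message in Control iWAT and 18.3 ± 1.92 in Control BAT (SD, n = 5 each). In Ai-α4KO libraries it was 2.37 ± 0.216 in iWAT and 3.19 ± 0.94 in BAT. The lowest Control value was 16.1 in both tissues, and the highest Ai-α4KO value was 4.84, in BAT library 4. With the GENCODE widths the lowest Control value was 26.7 and the highest Ai-α4KO value 9.26, again without overlap. The summed catalytic FPKM itself was 221 ± 13.5 for Control and 294 ± 18.1 for Ai-α4KO libraries of iWAT, without overlap. For BAT it was 265 ± 32.3 and 319 ± 18.1, with overlap. FPKM carries no TMM factors, so this sum contains the shift of all genes given above.

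**Figure D3:**
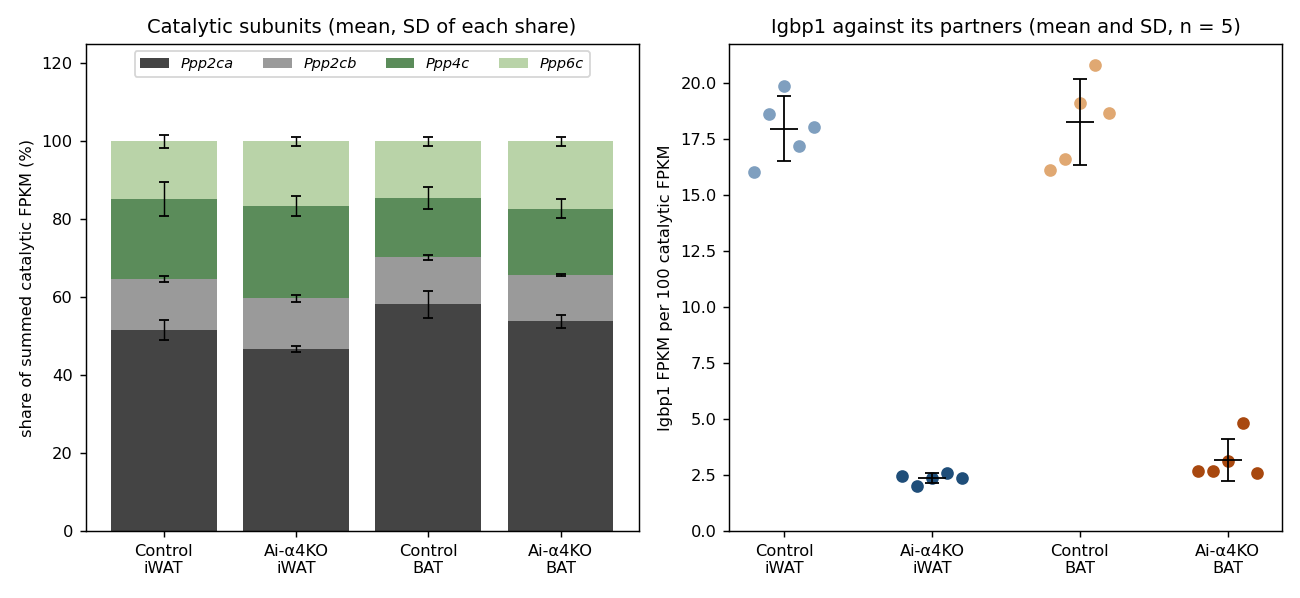
Left, mean share of each catalytic gene in the summed catalytic FPKM (percent, stacked from 0, error bars are the SD of each share, n = 5) by group. Right, Igbp1 FPKM per 100 catalytic FPKM in each library with mean and SD, all with the widths of the table, at 16.1 or more in Control libraries and 4.84 or less in Ai-α4KO libraries.

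Tiprl encodes a protein that binds PP2A-family catalytic subunits together with α4. It was higher in Ai-α4KO iWAT, where Control libraries held 39.6, 46.8, 48.3, 47.5 and 42.9 CPM and Ai-α4KO libraries 51.6, 65.9, 58.4, 56.0 and 63.6. The groups did not overlap, and the log2 fold change was 0.39 (standard error 0.0941, adjusted p = 0.00486). In BAT Control libraries held 71.6, 73.1, 73.7, 72.8 and 65.7 CPM and Ai-α4KO libraries 63.4, 61.9, 75.5, 68.1 and 68.8. These overlapped, and the log2 fold change was -0.11 (95% interval -0.32 to 0.09, adjusted p = 0.298). Without normalization factors the BAT value was 0.14, and without Ai-α4KO BAT library 4 it was -0.06.

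The iWAT call of Tiprl was lost, at adjusted p between 0.0111 and 0.0234, without Control library 1, 3 or 5 or Ai-α4KO library 2, 3 or 5. It was also lost with Control iWAT libraries 1 and 4 left out together, at 0.28 (adjusted p = 0.0514), and with upper-quartile factors (adjusted p = 0.0185). The difference of the genotype effect between the tissues was largest for Tiprl among the 8 genes. It was lower in BAT by 0.47 (difference -0.47, 95% interval -0.72 to -0.22) and just missed the threshold (adjusted p = 0.0138 for the interaction by edgeR). None of the 8 genes passed the interaction with edgeR, where 4.86% of all genes did. At an unadjusted p of 0.05 there was 1 of the 8, against 31% of all genes. DESeq2 passed 1 of the 8, Tiprl (-0.41, adjusted p = 0.0082), and 10.8% of all genes.

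The methylation enzymes were lower where they passed, Lcmt1 in iWAT and Ppme1 in BAT. Lcmt1, the methyltransferase, held 30.8, 34.5, 38.5, 33.9 and 37.6 CPM in Control iWAT and 25.8, 26.3, 27.0, 28.7 and 28.2 in Ai-α4KO iWAT. The groups did not overlap, and Lcmt1 fell by 0.37 on the log2 scale (standard error 0.0845, adjusted p = 0.00319). The call was lost without Control iWAT library 5 or Ai-α4KO iWAT library 3 (adjusted p of 0.011 and 0.0111), without normalization factors, at -0.25 (adjusted p = 0.0166), and under both limma settings.

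In BAT Lcmt1 held 37.6, 38.5, 38.1, 36.2 and 42.7 CPM in Control and 27.4, 24.8, 31.5, 38.8 and 31.5 in Ai-α4KO libraries. Ai-α4KO BAT library 4 was the one inside the Control range. That library also kept the most Igbp1 and held the highest skeletal muscle markers (41377 summed CPM). The log2 fold change of -0.36 did not pass (adjusted p = 0.0248), and without that library it was -0.41 and did (adjusted p = 0.00876). It also passed in one fit of all 20 libraries (adjusted p = 0.0092), and without normalization factors it was -0.11 (adjusted p = 0.401). The effect of genotype on Lcmt1 differed between tissues by 0.04 (95% interval -0.26 to 0.34).

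Ppme1, the methylesterase, passed in BAT. It held 50.7, 55.0, 54.7, 49.3 and 55.1 CPM in Control BAT and 44.7, 44.7, 34.4, 33.6 and 33.8 in Ai-α4KO BAT. The groups did not overlap, and Ppme1 fell by 0.51 on the log2 scale to 72.2% of Control (standard error 0.112, adjusted p = 0.00193). The call was lost without Ai-α4KO BAT library 4, at -0.40 (adjusted p = 0.0142), without normalization factors, at -0.23 (adjusted p = 0.169), and under both limma settings. In iWAT the levels were 37.6 ± 4.16 and 33.7 ± 5.33 CPM (SD, n = 5 each), and the log2 fold change of -0.16 did not pass (95% interval -0.44 to 0.11, adjusted p = 0.286). It was -0.25 without Control iWAT library 1, -0.09 without Ai-α4KO iWAT library 5, and -0.04 without normalization factors.

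Skeletal muscle markers were also higher in Ai-α4KO BAT, 6 of 8 of them, where 25.0% of all genes were. Their summed levels ran from 12672 to 41377 CPM against 882 to 9150 in Control BAT. The highest was that of Ai-α4KO BAT library 4, while the other Ai-α4KO BAT libraries reached at most 23686 CPM. Its part in the other values of library 4 was not tested. No muscle marker was at 0 in a whole group. With the mean muscle marker level as a covariate, 1951 of all genes passed as higher and 2001 as lower, against 3581 and 3564 without it. The summed levels of the genotypes did not overlap, so this covariate shares much of its spread with the genotype. A call lost with it therefore does not show that the gene depends on muscle. Igbp1 stood at -2.77 (adjusted p = 7.33e-06) with the covariate. Ppme1 no longer passed, at -0.44 (adjusted p = 0.063), which left 1 of the 8 genes past the threshold in BAT. Ppp4c moved from 0.19 to 0.53 (adjusted p = 0.0282), Lcmt1 from -0.36 to -0.58 (adjusted p = 0.025) and Ppp6c from 0.25 to 0.14 (adjusted p = 0.561), none of which passed.

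Between the depots of Control mice, 6 of the 8 genes were higher in BAT, where 17.5% of all genes were. The rises were 0.65 for Ppp2ca, 0.66 for Tiprl, 0.49 for Ppme1, 0.48 for Igbp1, 0.45 for Ppp6c and 0.35 for Ppp2cb on the log2 scale, with adjusted p between 3.2e-06 and 0.00523. Ppp4c (0.02, adjusted p = 0.901) and Lcmt1 (0.14, adjusted p = 0.255) did not pass. Ppp2ca and Tiprl alone passed without normalization factors, where the median of all genes moved from -0.003 to -0.23. The count of 6 fell to 4 without Control iWAT library 1 or Control BAT library 2, and to 5 without Control iWAT library 2, 3, 4 or 5 or Control BAT library 1 or 3. Igbp1 lost the call in 5 of these fits, as given above. Ppp2cb lost it without Control iWAT library 1, 2 or 3 or Control BAT library 1 or 2 (adjusted p between 0.0115 and 0.0193), with the filter of 10 counts (adjusted p = 0.0115) and under the replicate block (adjusted p = 0.0249). In Ai-α4KO mice 2 of the 8 genes were higher in BAT, Igbp1 and Ppp2ca (0.43, adjusted p = 0.0059), where 13.9% of all genes were. That count was 4 without Control iWAT library 1, Ai-α4KO iWAT library 2, or Ai-α4KO BAT library 1 or 2, and it was 1 without Ai-α4KO BAT library 4. Without that library Ppp2ca was the gene lost (adjusted p = 0.0105), and its call was also lost without normalization factors (adjusted p = 0.0197), under both limma settings and under the replicate block (adjusted p = 0.0109).

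The order of the 4 groups differed between genes. Ppp2ca was at 386 ± 77.1 CPM in Control BAT and 365 ± 21 in Ai-α4KO BAT, both above 271 ± 22.2 in Ai-α4KO iWAT and 246 ± 17.6 in Control iWAT. The neighbours within a tissue overlapped, while the step from Ai-α4KO BAT to Ai-α4KO iWAT showed no overlap. Ppp6c ran from 94.1 ± 7.68 in Ai-α4KO BAT through 77.9 ± 8.77 in Ai-α4KO iWAT and 77.5 ± 10.3 in Control BAT to 56.5 ± 7.18 in Control iWAT. Tiprl ran from 71.4 ± 3.29 in Control BAT through 67.5 ± 5.32 in Ai-α4KO BAT and 59.1 ± 5.78 in Ai-α4KO iWAT to 45 ± 3.68 in Control iWAT, and only its last step had no overlap. Ppp2cb had its lowest mean in Control iWAT, and all neighbours in its order overlapped. Ppp4c had the highest mean in Ai-α4KO iWAT, and each of its neighbours in the order overlapped. Ppme1 and Lcmt1 were highest in Control BAT and lowest in Ai-α4KO iWAT, at 33.7 and 27.2 CPM.

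The other subunits and regulators of these phosphatases were described from lists. Of 16 tested scaffold and regulatory subunits of PP2A, iWAT of Ai-α4KO mice had 1 higher and 3 lower, and their BAT had 1 higher and 5 lower. The shares of all genes, in the same order, were 21.5% and 18.8% for iWAT, then 25.0% and 24.8% for BAT. Ppp2r5a, a B56 regulatory subunit, had the lowest value in both tissues (-1.49, adjusted p = 1.73e-05, and -1.61, adjusted p = 2.15e-06). Ppp2r5d, of the same B56 family, fell by 0.78 and by 1.24 (adjusted p = 6.97e-05 and 4.47e-06). Ppp2r5c, another B56 gene, rose by 0.74 and 0.48 (adjusted p = 0.000114 and 0.00107), so members of 1 family moved in opposite directions. Ppp2r1b, the β scaffold, fell by 1.08 in iWAT (adjusted p = 0.000592) and stood at -0.61 in BAT (adjusted p = 0.0336), where it passed without Ai-α4KO BAT library 1, at -0.86 (adjusted p = 0.00121), and under the replicate block (adjusted p = 0.00853). The others that fell in BAT, named after their values were seen, were Ppp2r1a, Ppp2r2d and Strn4. With the muscle marker covariate the BAT calls of Ppp2r5c (0.32, adjusted p = 0.0979), Ppp2r1a (-0.41, adjusted p = 0.0632) and Strn4 (-0.31, adjusted p = 0.175) were lost. Those of Ppp2r1a and Strn4 were also lost without normalization factors (adjusted p = 0.102 and 0.0783) and under both limma settings. The replicate block lost that of Ppp2r1a too (adjusted p = 0.0105). The list's median was -0.06 in iWAT and -0.09 in BAT.

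The highest BAT value of the PP2A list was that of Ppp2r3a, at 1.03, which did not pass (adjusted p = 0.0236) and was -0.14 with the muscle marker covariate. It passed with DESeq2 (adjusted p = 0.00413), without normalization factors (0.00516), with limma on log2(FPKM + 0.1) (0.0094) and without Ai-α4KO BAT library 1 or 2 (0.00805 and 0.00832). In iWAT, where 21.5% of all genes passed as higher and 18.8% as lower, 3 of 5 regulatory subunits of PP4 were higher. These were Ppp4r2 (0.88, adjusted p = 0.000248), Ppp4r1 (0.75, adjusted p = 1.9e-05) and Ppp4r3a, listed as Smek1 (0.66, adjusted p = 0.000729). Ppp4r4 ran the other way in iWAT, at -1.14, without passing (adjusted p = 0.0132). It passed as lower there with DESeq2 (adjusted p = 0.00152), in one fit of all 20 libraries (0.0056), with upper-quartile factors (0.00887), under the replicate block (0.00567) and without Control iWAT library 1 (0.00699) or Ai-α4KO iWAT library 4 (0.00332). In BAT, where 25.0% of all genes passed as higher and 24.8% as lower, none was higher and Ppp4r4 fell by 1.33 (adjusted p = 0.0025). That call was lost with the muscle marker covariate, at -1.10 (adjusted p = 0.0763), and without normalization factors (adjusted p = 0.0143). Ppp4r1 stood at 0.47 in BAT without passing (adjusted p = 0.0153), but passed as higher with DESeq2 (adjusted p = 0.00564), in one fit of all 20 libraries (0.000962), with the filter of 10 counts, without normalization factors, under both limma settings and without Ai-α4KO BAT library 4. The list's median was 0.66 in iWAT and -0.03 in BAT. Of 6 regulatory subunits of PP6, set beside the same shares of all genes, Ppp6r2 was lower in iWAT at -0.66 (adjusted p = 0.0022). In BAT Ppp6r3 was lower at -0.46 (adjusted p = 0.00212) and Ankrd44 higher at 0.56 (adjusted p = 0.00415). The highest iWAT value was also that of Ankrd44, at 0.36, and the lowest BAT value that of Ankrd52, at -0.51, neither of which passed (adjusted p = 0.0449 and 0.0269). The list's median was -0.04 in iWAT and -0.34 in BAT. The call of Ppp6r2 was lost under both limma settings (adjusted p = 0.0128 and 0.013). The BAT call of Ankrd44 was lost, at adjusted p between 0.0104 and 0.014, without Control BAT library 3 or 5, without Ai-α4KO BAT library 1, 2 or 5, and under the replicate block. The call of Ppp6r3 was lost without normalization factors, at -0.19 (adjusted p = 0.184), with the muscle marker covariate at -0.47, as large as before (adjusted p = 0.0406), under both limma settings and under the replicate block.

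Among 11 activators, inhibitors and ubiquitin ligases, Ai-α4KO iWAT had 2 higher, beside 21.5% of all genes, and 1 lower, beside 18.8%. For BAT the counts were 3 higher, beside 25.0% of all genes, and 1 lower, beside 24.8%. Cip2a, an inhibitor of PP2A best known from dividing cells and listed as C330027C09Rik, rose by 2.91 in iWAT (adjusted p = 5.4e-06), and its rise in BAT was 2.42 (adjusted p = 9.86e-07). Mid1, the ubiquitin ligase that α4 links to PP2A, rose by 1.06 in BAT (adjusted p = 0.000432) and was at 0.76 in iWAT without passing (adjusted p = 0.0212), though it passed there in one fit of all 20 libraries (adjusted p = 0.00617). Set, another PP2A inhibitor, was higher in iWAT (0.53, adjusted p = 0.00484) and Arpp19, an inhibitor that acts in mitosis, in BAT (0.71, adjusted p = 0.00779). Bod1 was lower in iWAT (-0.71, adjusted p = 0.00235) and Mid2, the relative of Mid1, in BAT (-0.48, adjusted p = 0.00333). The lowest BAT value of this list was that of Anp32a, at -0.49 without passing (adjusted p = 0.0162). It passed without Control BAT library 5 (adjusted p = 0.00161) and in one fit of all 20 libraries (adjusted p = 0.00975). The calls of Cip2a, Mid1 and Bod1 were kept under each alternative run. That of Set was lost without Control iWAT library 1, 2, 3 or 5 or Ai-α4KO iWAT library 2, 3 or 5, with adjusted p up to 0.0182. It was also lost with upper-quartile factors (adjusted p = 0.0111) and under the replicate block (adjusted p = 0.0163). Arpp19 was lost without Control BAT library 1, 3, 4 or 5 or Ai-α4KO BAT library 3 or 5, and under the replicate block (adjusted p = 0.0223). With the muscle marker covariate Arpp19 stood at 0.35 (adjusted p = 0.352). Mid2 was lost without Ai-α4KO BAT library 4 (adjusted p = 0.0178), without normalization factors (adjusted p = 0.164), under the replicate block (adjusted p = 0.018) and under both limma settings. The list's median was 0.22 in iWAT and 0.16 in BAT.

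Catalytic subunits of the other phosphoprotein phosphatases served as a comparison for the 4 partners of α4. Of 8 tested, a rise passed for 1 in iWAT, beside 21.5% of all genes, and a fall for 2, beside 18.8%. In BAT a rise passed for 2 and a fall for 2, beside 25.0% and 24.8% of all genes. Ppp1ca, of protein phosphatase 1, was lower in both tissues (-0.51, adjusted p = 0.00198, and -0.68, adjusted p = 0.000111), and its relative Ppp1cc was higher in both (0.58, adjusted p = 0.000416, and 0.47, adjusted p = 0.00191). The remaining calls were Ppp3cc, lower in iWAT, and Ppp5c (-0.78, adjusted p = 3.25e-05) and Ppp3ca in BAT, the latter higher at 0.85 (adjusted p = 0.00665). Ppp3ca stood at 0.29 with the muscle marker covariate (adjusted p = 0.471). Without any one Control BAT library, without Ai-α4KO BAT library 3 or 5, or under the replicate block (adjusted p = 0.0119), Ppp3ca also lost its call. Ppp3cc lost it without Control iWAT library 4 or Ai-α4KO iWAT library 1, 3, 4 or 5, and under 7 other alternatives. In BAT Ppp1ca lost its call without normalization factors, at -0.41 (adjusted p = 0.0107). Ppp1cc lost it with the muscle marker covariate, at 0.43 beside 0.47 without the covariate (adjusted p = 0.0592). None changed by 2-fold with a call, and Ppef2, at 1.0 in iWAT and 0.86 in BAT, did not pass in either tissue (adjusted p = 0.0131 and 0.0512). In iWAT Ppef2 passed without normalization factors, at 1.12 (adjusted p = 0.0087), without Ai-α4KO iWAT library 1, at 1.12 (adjusted p = 0.00759), with DESeq2 (0.0066), with the filter of 10 counts (0.00823) and under both limma settings (0.00363 and 0.00583). In BAT it passed under both limma settings (adjusted p = 0.00509 and 0.00761). The list's median was -0.07 in iWAT and -0.05 in BAT.

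**Figure D4:**
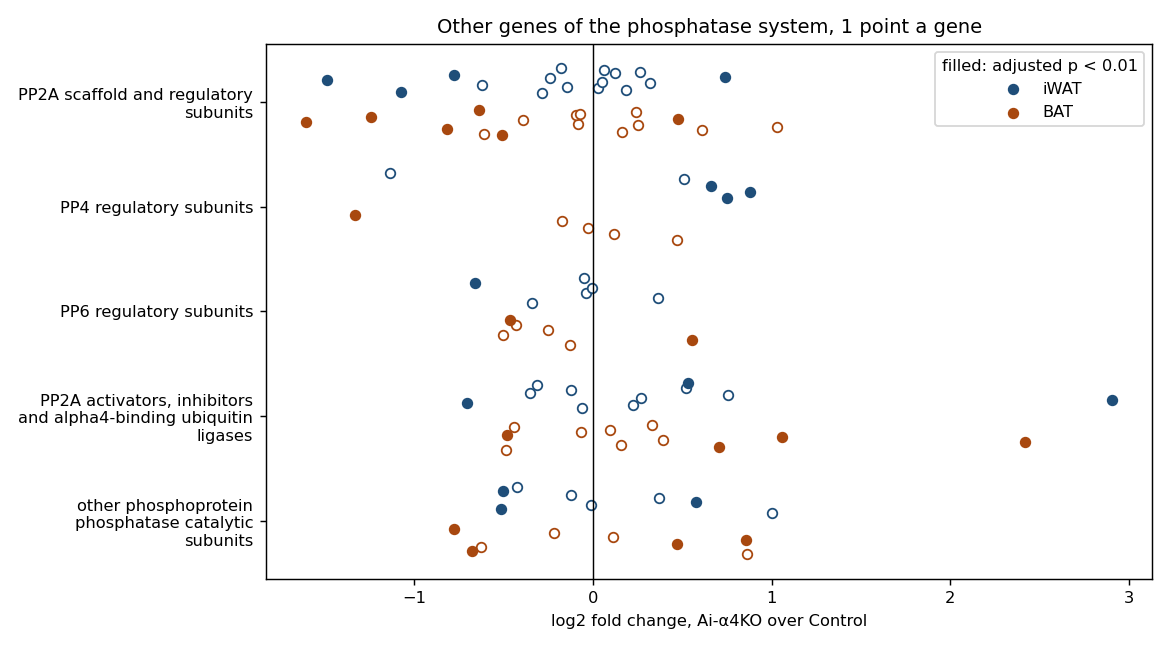
Log2 fold change of Ai-α4KO over Control (horizontal axis) for the genes of the 5 phosphatase lists (vertical axis), 1 point a gene, in iWAT and BAT. Filled points passed an adjusted p of 0.01. The point farthest right in each tissue is Cip2a, at 2.91 and 2.42, and the point farthest left is Ppp2r5a, at -1.49 and -1.61.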

How the data were processed

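RNA of 20 adipose libraries was made with a stranded mRNA kit and read as pairs of 150 bp. The submitters' processing notes name bcl2fastq 2, STAR 2.5.3a and build mm10; the counting tool is not given in the sources used here. The authors deposited an expected count per gene and library without normalization, and an FPKM per gene and library, which is that count divided by the transcript width and a library total. Totals ran from 24023791 to 50385196 counts, and 0 columns belonged to no sample. Of the nonzero counts, 76.6% were whole (within 1e-09).

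Counts were rounded and tested in R 4.3.3 with edgeR 4.0.16 (filterByExpr, TMM, glmQLFit, glmQLFTest, Benjamini-Hochberg over all genes tested), within each tissue for genotype and over all 20 libraries for the tissue contrasts and the interaction. A gene passed at an adjusted p below 0.01; fold changes of 2 are given separately. Log2 CPM used a prior count of 2. Scripts were tested on simulated data. The 9 genes and the lists were chosen with earlier results of these data known. Named genes were the 9, list members that passed with a 2-fold change or were the extremes of their list, and the 5 genes most like Igbp1; others are said to have been named after their values were seen, and every list member that passed is named where 5 or fewer did. The macrophage marker Adgre1 was read under its older symbol Emr1. Alternatives were DESeq2 1.42.0, limma 3.58.1 on log2(FPKM + 1) and log2(FPKM + 0.1), other scalings, filters and thresholds, one fit of all libraries, a replicate block, a muscle marker covariate, libraries left out, and, chosen after the data were seen, GENCODE transcript widths for the shares.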

Additional observations from a re-analysis of the deposited data

Results flagged for a closer look

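For 3 of the 32 gene and group combinations examined, 1 of the 5 libraries lay far from the others, and chance flags about 1 in 20 groups. Ppp2ca was at 401 CPM in Ai-α4KO BAT library 3, where the other 4 libraries of the group ran from 352 to 364. Ppp4c was at 89.8 CPM in Control BAT library 1, where the others ran from 60.6 to 66.7. Tiprl was at 65.7 CPM in Control BAT library 5, where the others ran from 71.6 to 73.7. None of the 3 libraries was flagged for a second gene.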

How the results depend on the processing

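The fall of Igbp1 kept its direction and its call in both tissues under every alternative run, from -2.79 to -2.35 for iWAT and -2.77 to -2.16 for BAT. Of 1032 comparisons of single genes among the 8 with their value as reported, 907 kept direction and call, 60 lost the call, 31 gained it and 34 turned sign. The causes were not tested, beyond what the construction of each alternative shows.

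In iWAT the number of genes passed (4 as reported) was 2 with upper-quartile factors and 1 with a 2-fold requirement, and ran from 1 to 5 with a library left out. In BAT (2 as reported) it was 1 with the muscle covariate and 1 with the 2-fold requirement. For the interaction (0) it was 1 with DESeq2 and 1 at an adjusted p below 0.05. For BAT against iWAT in Control (6) it was 2 without normalization factors, with upper-quartile factors and under both limma settings, and 0 with the 2-fold requirement. In Ai-α4KO (2) it was 1 without normalization factors and under both limma settings, 0 with the 2-fold requirement, and from 1 to 4 with a library left out.

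Values without a call turned sign as follows. The genotype effect in BAT was 0.15, 0.17 and 0.17 for Ppp2ca and 0.14, 0.14 and 0.15 for Tiprl without normalization factors, with limma on log2(FPKM + 1) and with limma on log2(FPKM + 0.1). For Ppp2cb it was 0.23, 0.24 and 0.24 in the same order, 0.0036 with upper-quartile factors, 0.024 with at least 10 counts in every library, 0.0049 with DESeq2, 0.081 with the muscle covariate, 0.0030 in one fit of 20 libraries, and -0.093 to 0.040 with a library left out. Ppp2r3a in BAT was -0.14 with the muscle covariate. For BAT against iWAT in Control, Ppp4c was -0.20, -0.18 and -0.18 without normalization factors and under the limma settings, -0.091 with upper-quartile factors, -0.020 with the filter of 10 counts, and -0.096 to 0.14 with a library left out; Lcmt1 was -0.081, -0.065 and -0.068 under the first 3 of these. In Ai-α4KO, Ppp2cb was -0.037, -0.026 and -0.027 under the same 3. With a library left out, the interaction ran from -0.015 to 0.34 for Igbp1, from -0.25 to 0.0092 for Ppp6c and from -0.059 to 0.21 for Lcmt1.

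With Adipoq alone, Igbp1 relative to adipocyte markers was -0.38 in iWAT and -0.35 in BAT, without a call. Counts not divided by width raised the share of Ppp2ca to 57.3% in Control iWAT, 52.5% in Ai-α4KO iWAT, 63.3% in Control BAT and 59.3% in Ai-α4KO BAT. GENCODE widths, chosen after the data were seen, lowered it to 25.1%, 21.7%, 31% and 27.8% in the same order. Of 31 calls of listed genes, 17 were kept under each alternative and 14 were lost under at least 1.

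The labels number replicates 1 to 5 in each group, and whether the numbers pair the libraries is not stated. A check of 5 pairs per comparison did not settle it and cannot exclude shared mice. The highest correlation between tissues was 0.22 in Control and 0.24 in Ai-α4KO. Deviations of same-numbered libraries correlated at over 0.1 in 2 of 5 pairs between genotypes in iWAT, 1 in BAT, 2 between tissues in Control and 2 in Ai-α4KO, and 0, 1, 2 and 2 libraries correlated best with their own number. The replicate block passed 5 genes in iWAT, 2 in BAT, 0 for the interaction, 5 for BAT against iWAT in Control and 1 in Ai-α4KO.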
